A study of Mus musculus with 10 samples.

Results

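The accessible chromatin round 9 genes for secreted cytokines was examined in mouse fibroblasts: Il6, Lif and Il11 of the interleukin 6 family, the chemokine genes Ccl2, Ccl7, Cxcl1, Cxcl5 and Cxcl12, and the growth factor gene Csf1. Every accessible site that overlapped the body of one of these genes or the 100 kb on either side by at least 1 bp was taken, which gave 223 of the 153924 listed sites, located on 5 chromosomes of mm10. The cells were immortalized mouse embryo fibroblasts of a single clone in which exon 4 of both endogenous Ash2l alleles had been deleted with an inducible Cre recombinase, so that all groups depended on a lentiviral fusion of FKBP12 (F36V), HA tags and human ASH2L. The 10 ATAC-seq libraries (assay for transposase-accessible chromatin with sequencing) comprised 2 replicates each of untreated cells, given only solvent by the methods of the study, and of cells treated with dTAG-13, a PROTAC that leads to degradation of the fusion protein, for 30 min, 4 h, 8 h and 24 h.

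The list pools all libraries and gives positions only. No value per library, replicate error or depth was therefore at hand, the groups were not compared, and all counts below are descriptions without a test. In bulk chromatin, a site open in few cells and a site weakly open in all cells cannot be told apart. The 9 genes are known as part of the secretory programme of senescent fibroblasts, but whether the cells were senescent was not measured by these data. The study itself reported no sign of senescence over the first 24 h.

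Cytokines of this kind are secreted by fibroblasts in response to injury, infection and persistent DNA damage. Interleukin 6, LIF and interleukin 11 bind receptors that share the signalling chain gp130 and activate STAT3. Chemokines attract leukocytes through G protein-coupled receptors, and CSF1 sustains macrophages. Transcription of most of these genes is known to be induced through NF-kappaB, C/EBP and AP-1 factors bound at promoters and at enhancers some distance away.

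To determine whether the promoters were accessible, sites within 1 kb of any annotated start site were counted. Such a promoter site was found for 8 of the 9 genes, Cxcl1 being the exception. Over all coding genes the share with a promoter site was 71.4%. CpG islands, the CpG-rich stretches at the starts of many broadly expressed genes, lay at a start of 3 of the 9 genes (Lif, Cxcl12 and Csf1), and all 3 had a promoter site, where the share over coding genes with an island was 95.9%. Of the 6 genes without an island, 5 had a promoter site (Il6, Il11, Ccl2, Ccl7 and Cxcl5), against 38.6% of all coding genes without an island. Other cytokine genes and receptor genes without an island were also above that share, at 8 of 13 and 5 of 8. With 9 genes, 2 pairs of which are neighbours, these shares have little precision. The split by island also depended on how islands were defined, as 1 gene (Cxcl12) had one under stricter criteria and 4 genes when repeats were not masked, Il11 then being added.

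**Figure D1:**
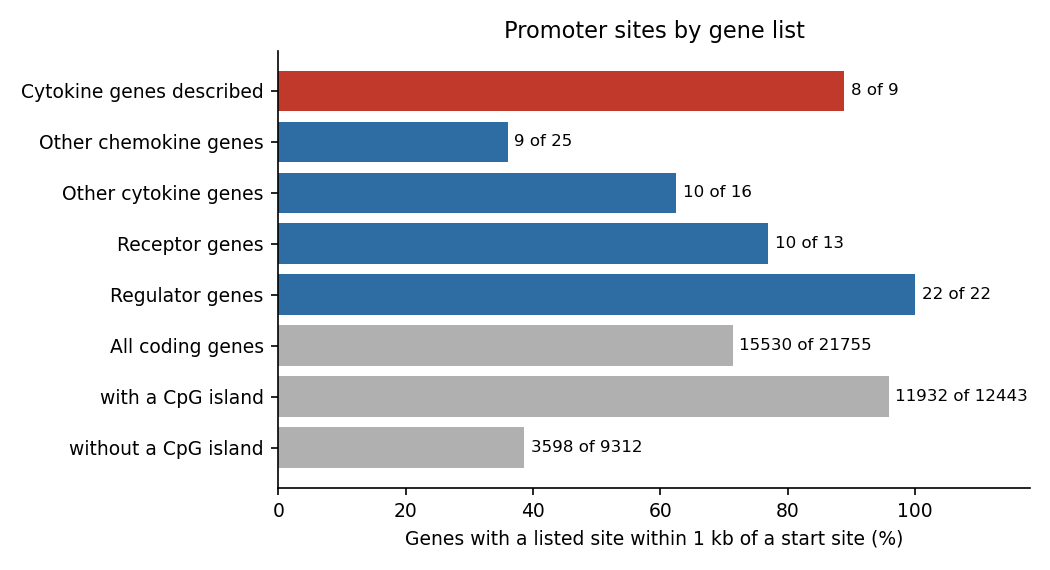
Percentage of genes (x axis) with at least 1 listed site within 1 kb of a start site, for the 9 cytokine genes (red), for 4 lists of related genes (blue) and for all coding genes and those with and without a CpG island (grey). The 9 genes, 3 of them with an island, stood at 8 of 9. The other chemokine genes stood at 9 of 25, other cytokine genes at 10 of 16, receptor genes at 10 of 13 and regulator genes at 22 of 22. All coding genes stood at 15530 of 21755, those with an island at 11932 of 12443 and those without at 3598 of 9312.

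Il6 encodes the inflammatory cytokine interleukin 6 and is located at chr5:30013114-30019981 on the plus strand. A site of 1143 bp, chr5:30012594-30013736, covered all 4 of its annotated start sites. The gene body held 3 sites in all, the others being chr5:30014537-30015000 in an intron, which was the distal site nearest to the start, and chr5:30018386-30018835 with its middle in an exon. The 250 bases before the start, read from RefSeq promoter windows of GRCm38.p6 (chr5:30012864-30013113, plus strand), are shown because they lay inside the promoter site and held 1 match each to AP-1, C/EBP and NF-kappaB (capitals).
Il6: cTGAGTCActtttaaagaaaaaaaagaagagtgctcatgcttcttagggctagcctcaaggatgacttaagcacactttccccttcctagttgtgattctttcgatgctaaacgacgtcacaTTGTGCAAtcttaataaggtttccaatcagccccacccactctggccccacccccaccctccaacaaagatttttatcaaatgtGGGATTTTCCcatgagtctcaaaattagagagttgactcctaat

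Il6 was the only one of the 6 genes with a RefSeq window whose sequence matched all 3 motifs. The motifs searched on both strands were TGANTCA for AP-1, TTGCNNAA for C/EBP and GGGANNTTCC for NF-kappaB, N being any base. Beyond the gene, the surroundings of Il6 were the sparsest of the set. Its window held 14 sites, the lowest number of the 9 genes, but within the quartiles of all coding genes (12 and 28). The longest stretch without a site was 38263 bp, downstream of the gene. The nearest start of another coding gene was that of Tyms, for thymidylate synthase, at 60408 bp, and the widest site of the window (1934 bp, chr5:30104227-30106160) lay at starts of Garem2 and 3110082J24Rik. The widest distal site had 1042 bp (chr5:30114065-30115106).

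Lif encodes leukemia inhibitory factor and is located at chr11:4257557-4272514 on the plus strand. The site nearest to its outermost start began 941 bp downstream of it, in an intron (chr11:4258498-4259406, 909 bp). A second site of 1082 bp, chr11:4266440-4267521, covered both internal starts at positions 4266796 and 4267095. The CpG island of 279 bp (chr11:4266613-4266891) lay inside this site and contained the start at 4266796 but not that at 4267095. The stretch without a site round the outermost start measured 29604 bp. The body contained 6 sites, more than for any gene of the set except Csf1. Osm, for the related cytokine oncostatin M, had its start 21137 bp from that of Lif and no promoter site, its nearest site being 7527 bp away. Of the 32 sites within 100 kb, the widest was located at starts of Sf3a1 and Ccdc157 (1996 bp), and the widest distal site, chr11:4308007-4309737, had 1731 bp and lay 51315 bp downstream of the start.

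Il11 encodes interleukin 11 and is located at chr7:4772373-4782859 on the minus strand. Its only site in the body was also the widest of all 223 sites, with 2186 bp (chr7:4776618-4778803), and covered the internal start at position 4778141. The outer starts at 4782857 and 4782859 were 4054 and 4056 bp away from that site and had no site within 1 kb, although the start of Tmem190, a gene for a transmembrane protein, lay only 78 bp from the outermost one. When only the outermost start of each gene was considered, 7 of the 9 genes had a promoter site, as Il11 dropped out. The 160 bases before the internal start (RefSeq window, chr7:4778142-4778301, minus strand) are shown because the site covered this start and not the outer ones. They contained an AP-1 match, in capitals, and 9 CpG dinucleotides at a GC content of 68.8%.
Il11: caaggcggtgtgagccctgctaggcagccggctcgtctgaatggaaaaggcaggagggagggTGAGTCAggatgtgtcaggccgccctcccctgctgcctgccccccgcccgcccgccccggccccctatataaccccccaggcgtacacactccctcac

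The surroundings of Il11 are rich in genes. Of its 27 sites, 15 lay at annotated starts and 12 were distal. Il11 was the nearest coding start for 1 of the 27. The widest distal site of the window (1109 bp, chr7:4764959-4766067) lay in an intron of Fam71e2.

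Ccl2 and Ccl7 encode chemokines that attract monocytes. They lie in tandem on the plus strand at chr11:82035571-82037453 and chr11:82045712-82047525, with 10141 bp between their 5′ ends, and 24 sites belonged to the windows of both (96% of the sites of Ccl2 and 88.9% of those of Ccl7). The promoter site of Ccl2 had 1300 bp (chr11:82034466-82035765) and that of Ccl7 567 bp (chr11:82045396-82045962), the latter being narrower than the median of all sites (619 bp). Each was the only site in the body of its gene. The start of Gm17268, an uncharacterised gene model, was nearest to both, at 2991 bp from Ccl2 and 7150 bp from Ccl7. Of the remaining chemokine genes of the cluster, Ccl12 had a site of 233 bp at 48 bp from its start, while the nearest sites to the starts of Ccl11 and Ccl8 were 8681 bp and 13388 bp away.

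The distal site nearest to Ccl2, chr11:82032603-82033539 with 937 bp, had its middle 2500 bp upstream of the start. A regulatory region upstream of Ccl2 with a pair of NF-kappaB sites is known in the mouse. The stretch chr11:82033082-82033350 (GRCm38.p6, plus strand, 269 bases) is shown because it was the only distal site of the set with 2 matches to GGGANNTTCC. These lay 2371 and 2345 bp before the start, between AP-1 matches at 2473 and 2231 bp (all in capitals).
Ccl2: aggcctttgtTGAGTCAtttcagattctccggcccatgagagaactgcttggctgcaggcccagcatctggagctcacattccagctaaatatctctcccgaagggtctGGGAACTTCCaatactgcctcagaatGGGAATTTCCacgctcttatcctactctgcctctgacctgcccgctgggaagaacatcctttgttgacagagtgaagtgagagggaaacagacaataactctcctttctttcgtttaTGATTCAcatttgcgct

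For Ccl7, the nearest distal site (chr11:82043394-82044320, 927 bp) was centred 1855 bp upstream of the start and held an AP-1 match. The widest distal site of both windows, chr11:82066504-82067842 with 1339 bp, lay 21461 bp downstream of the start of Ccl7.

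Cxcl1 and Cxcl5 encode chemokines that attract neutrophils and belong to a cluster on chromosome 5, with 131881 bp between their 5′ ends and 14 sites in the windows of both (50% of the sites of Cxcl1 and 40% of those of Cxcl5). Cxcl5, at chr5:90759360-90761624 on the plus strand, had a promoter site of 1052 bp over both of its starts (chr5:90758761-90759812), which was the only one in its body, and another of 692 bp just upstream (chr5:90757872-90758563). Its nearest distal site was chr5:90763685-90764709 and its widest, shared with the window of Cxcl1, was chr5:90855265-90856632 (1368 bp). Cxcl1, at chr5:90891241-90893115 on the plus strand, had no listed site at its start or in its body. The nearest one, chr5:90884671-90885599, ended 5642 bp upstream of the start, and the stretch without a site round the start measured 12598 bp. In contrast, 28 sites lay within 100 kb of Cxcl1, including distal sites of 1800 bp (chr5:90907632-90909431, the widest of the window) and 1795 bp (chr5:90875643-90877437).

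How often the sequence at Cxcl1 recurs in the reference was counted only within 1 kb of its outermost start. Of 1952 words of 50 bases there, 1949 occurred once, and 1810 at Cxcl5. Soft-masked repeats made up 9.29% of these bases at Cxcl1 and 21.8% at Cxcl5. The words cover only part of the 12598 bp without a site, and no alignment of reads was examined. Whether the lack of a listed site reflects closed chromatin, the mapping of reads, the calling of peaks or the list used here was not tested. Longer stretches without any listed site occurred elsewhere, as the cytokine gene Clcf1, which has a CpG island at a start, had its nearest site 46525 bp away, and whether the list used here is complete at such places is not known. The 160 bases before the first annotated start of Cxcl1 (RefSeq window, chr5:90891081-90891240, plus strand) are shown because they held overlapping matches to GGGANNTTCC on both strands (capitals) and yet no site was listed there.
Cxcl1: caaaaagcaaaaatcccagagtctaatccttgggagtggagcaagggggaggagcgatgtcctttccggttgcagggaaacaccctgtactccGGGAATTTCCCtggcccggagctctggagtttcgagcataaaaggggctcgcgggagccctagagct

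Other chemokine genes of this cluster differed in the same respect. Cxcl2, whose start is the nearest to that of Cxcl1 at 12630 bp, had no promoter site, the nearest being 2915 bp away. Ppbp, the nearest to Cxcl5 at 9158 bp, and Pf4, both known as genes of platelets, also had none, with 3809 bp and 6105 bp to the nearest site. Cxcl3 had a site of 459 bp at 160 bp from its start, and Cxcl15 had 2 promoter sites, the wider with 913 bp. At Cxcl2, 1813 of 1952 words occurred once, and at Cxcl3 1798.

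Cxcl12 encodes the chemokine that retains stem cells and lymphocytes in stroma. It is located at chr6:117168535-117181367 on the plus strand, and the nearest start of another coding gene, Tmem72, lay 451622 bp away. Accordingly, Cxcl12 was the nearest coding start for all 24 sites of its window. Its promoter site of 1463 bp, chr6:117168364-117169826, covered all starts and the whole CpG island of 857 bp. A further 3 sites lay in its body, the widest with 686 bp (chr6:117173774-117174459). The distal site nearest to the start was chr6:117166747-117167515, and the widest had 1621 bp (chr6:117152829-117154449). The 160 bases before the start (RefSeq window, chr6:117168375-117168534, plus strand) are shown as the example of a gene with an island at its start. They ended just before the island, which began at position 117168541. They held 12 CpG dinucleotides and no match to AP-1, C/EBP or the NF-kappaB form, so that no base is in capitals.
Cxcl12: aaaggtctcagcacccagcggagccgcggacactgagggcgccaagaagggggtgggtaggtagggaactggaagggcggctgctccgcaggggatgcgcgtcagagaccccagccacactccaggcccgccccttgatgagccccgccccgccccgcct

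Csf1 encodes colony-stimulating factor 1 and is located at chr3:107741048-107760469 on the minus strand. It was the gene with the most sites, both in its window (49) and in its body (7). The promoter site of 1010 bp, chr3:107759816-107760825, covered the outermost start and the CpG island of 441 bp. A site of 861 bp, chr3:107750908-107751768, covered the internal start at position 107750979, and a site of 342 bp, chr3:107749422-107749763, lay within 1 kb of the internal start at 107750741. The remaining body sites were at most 1625 bp wide and included the distal site nearest to the outermost start (chr3:107758520-107759008). The widest site of the window had 2119 bp (chr3:107821888-107824006), was distal and was centred 62478 bp upstream of the start. The nearest start of another coding gene was that of Ahcyl1, for an S-adenosylhomocysteine hydrolase-like protein, at 63909 bp. The 160 bases before the start (RefSeq window, chr3:107760470-107760629, minus strand) are shown because they held a match to GGGANNTTCC, here on the opposite strand of the gene and in capitals.
Csf1: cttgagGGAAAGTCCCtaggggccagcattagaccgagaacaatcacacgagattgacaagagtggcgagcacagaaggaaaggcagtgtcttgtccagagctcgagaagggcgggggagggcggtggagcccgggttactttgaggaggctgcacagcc

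In the RefSeq promoter windows, which run from 250 bases before to 50 after a start and were at hand for 6 of the 9 genes, GGGANNTTCC was found for Il6, Cxcl1 and Csf1, that is 3 of 6, while 1.64% of all coding genes with a window had it. The match lay 44 bp before the start of Il6, 71 bp before that of Cxcl1 and 154 bp before that of Csf1, counted to its most distant base. For Cxcl1 this distance was counted from the RefSeq start at position 90891245. The bases printed above end before the first annotated start at 90891241. AP-1 was found for Il6, Lif and Il11 (8.17% of all coding genes) and C/EBP for Il6 (11.6%). TATAAA in the 50 bases before the start was found for 0 of the 6 genes and for 3.71% of all coding genes. This exact string misses variants, such as tatataa in the printed bases of Il11 and cataaaa in those of Cxcl1. Whether these promoters have a TATA box was therefore not tested. The windows of Ccl2, Ccl7 and Cxcl5 were not at hand. In the whole promoter sites over their starts, GGGANNTTCC (chr5:90759270-90759280, both strands) and C/EBP matched at Cxcl5 and AP-1 at Ccl7. None of these motifs matched in that of Ccl2. These sites differ in length from the windows, so the shares above do not apply to them.

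Next, the number of sites round each gene was set beside that of all 21755 coding genes. The median coding gene had 20 sites within 100 kb (quartiles 12 and 28). In decreasing order the counts were 49 for Csf1, 35 for Cxcl5, 32 for Lif, 28 for Cxcl1, 27 for Il11 and Ccl7, 25 for Ccl2, 24 for Cxcl12 and 14 for Il6, so that 8 of the 9 genes stood above the median. Ccl2 and Ccl7 shared 24 of their sites and Cxcl1 and Cxcl5 shared 14, so these counts are not independent. Csf1 reached the percentile 98.2 among coding genes and Il6 the percentile 29.2. Since long genes have longer windows, sites were also counted per 100 kb of window, where the median coding gene had 8.54. Csf1 had 22.3 (percentile 99.8), Cxcl5 17.3 (97.2) and Il6 6.77 (35.7). No spread belongs to these counts, so whether neighbours in this order differ cannot be said.

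**Figure D2:**
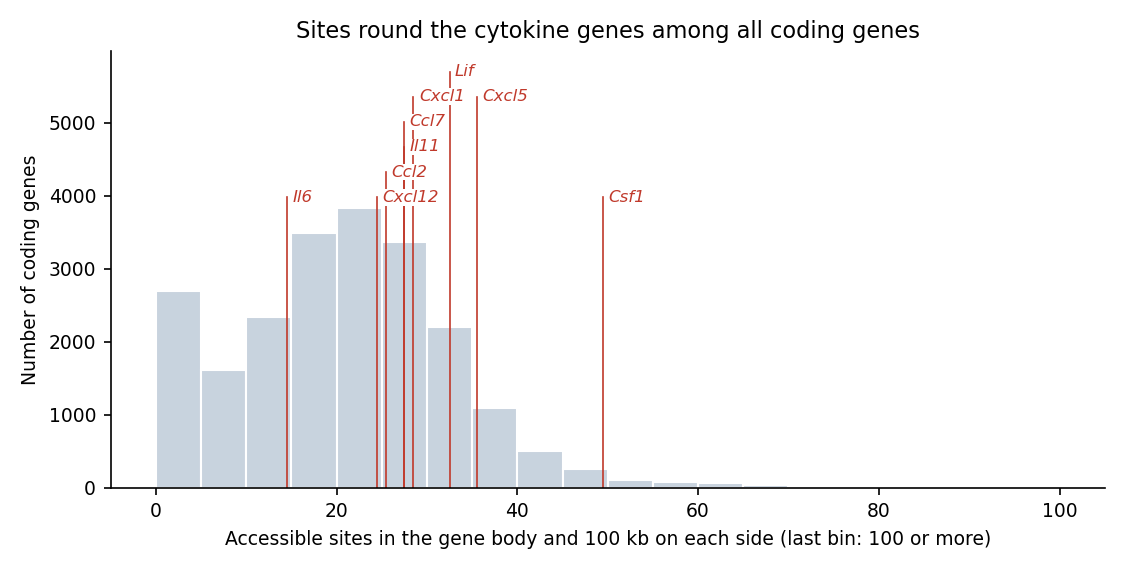
Number of coding genes (y axis) by the number of accessible sites in the gene body and 100 kb on each side (x axis, bins of 5), with the 9 cytokine genes marked by red lines whose heights carry no value. Il6 stood left of the peak of the distribution with 14 sites, and Csf1 far to the right with 49.

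The sites of the set were mostly distal. Of the 223 sites, 12 lay within 1 kb of a start of the 9 genes, 34 within 1 kb of a start of another gene and 177 (79.4%) were distal. Of the distal sites, 116 had their middle between genes, 48 in an intron and 13 in an exon. A gene of the set was the nearest coding start for 87 of the 177 distal sites (49.2%), so that about as many sites lay nearer to another coding gene. Within 10 kb of the outermost 5′ end there were 3 to 6 sites per gene, where the median coding gene had 2. Between 25 and 50 kb away the numbers ranged from 0 for Il6 to 15 for Csf1, with a median of 4 over coding genes.

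**Figure D3:**
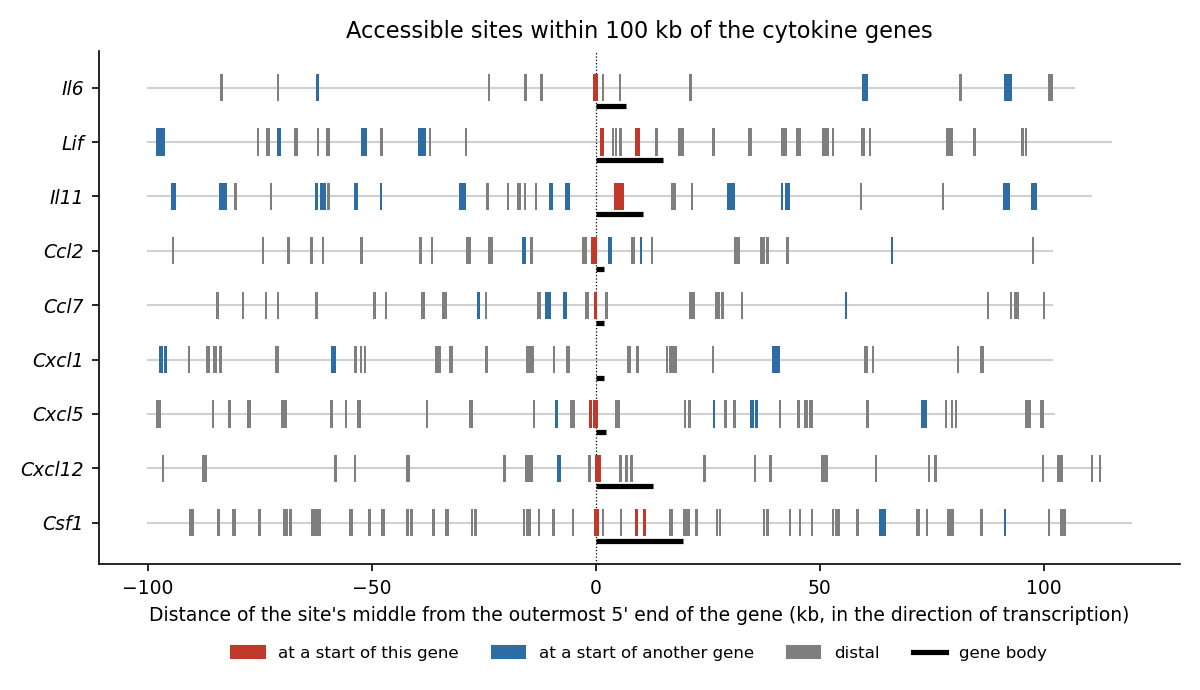
Positions of the sites along each gene's window, as the distance of the middle from the outermost 5′ end in kb (x axis, transcription to the right). Bars have the width of the site, or 0.5 kb where a site is narrower, in red at a start of the gene itself, in blue at a start of another gene and in grey elsewhere, and black lines mark gene bodies. Red bars are missing at Cxcl1 and lie inside the body at Lif and Il11.

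The median width was 655 bp over the 223 sites (95% interval from order statistics 605 to 727) and 619 bp over all sites of the list. Promoter sites of the 9 genes had a median of 1031 bp (n = 12, 342 to 2186 bp), compared to 1061 bp over all promoter sites. Distal sites of the set had a median of 605 bp (498 to 655), compared to 565 bp over all distal sites, a value inside this interval. The interval covers only the sampling of sites, which share libraries and cells.

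**Figure D4:**
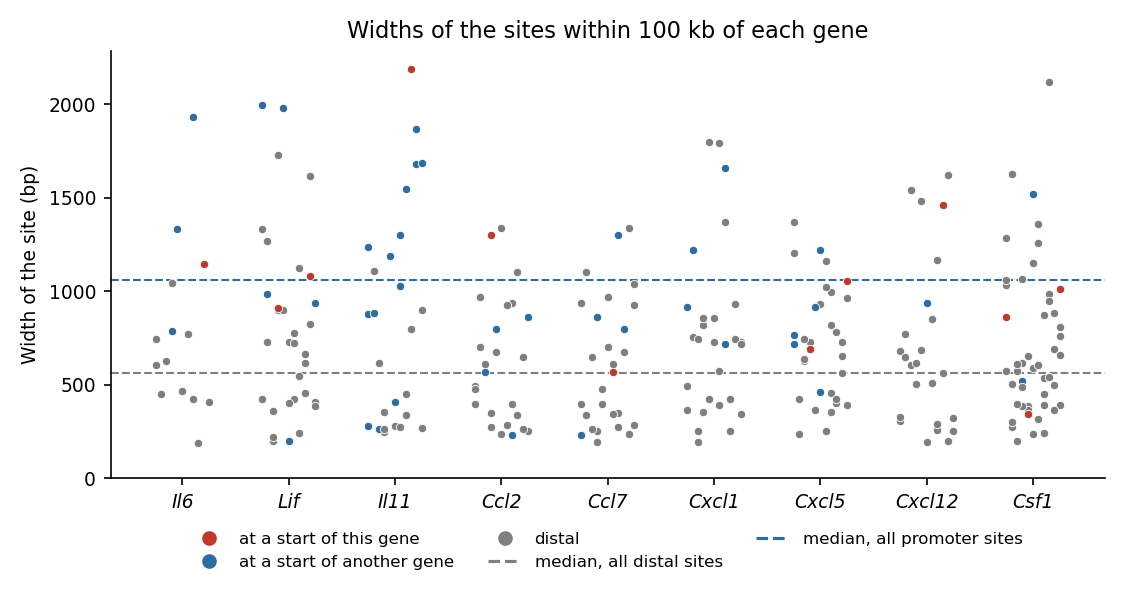
Width in bp (y axis) of every site within 100 kb of each gene, 1 point per site, in red at a start of the gene itself, in blue at a start of another gene and in grey elsewhere. The dashed lines mark the medians of all distal sites (565 bp, grey) and all promoter sites (1061 bp, blue). The red point of Il11 at 2186 bp is the highest of the plot.

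To examine which sequence motifs the distal sites carried, the 200 bp at the middle of each were searched. AP-1 matched in 45 of the 177 sites, or 25.4% (95% Wilson interval 19.6 to 32.3), beside 20.9% of all distal sites of the list. C/EBP matched in 14 sites (7.91%, 4.77 to 12.8), beside 9.85%, and TTCNNNGAA, the motif of STAT factors, in 20 sites (11.3%, 7.43 to 16.8), beside 7.85%. CTCF, an architectural protein, matched its consensus in 4 sites (2.26%, 0.882 to 5.67), beside 3.06%. GGGANNTTCC matched in 1 site (0.565%, 0.0998 to 3.13), beside 0.806%, this site being chr5:90706083-90707013 in the window of Cxcl5. All 5 intervals contained the share of the whole list.

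**Figure D5:**
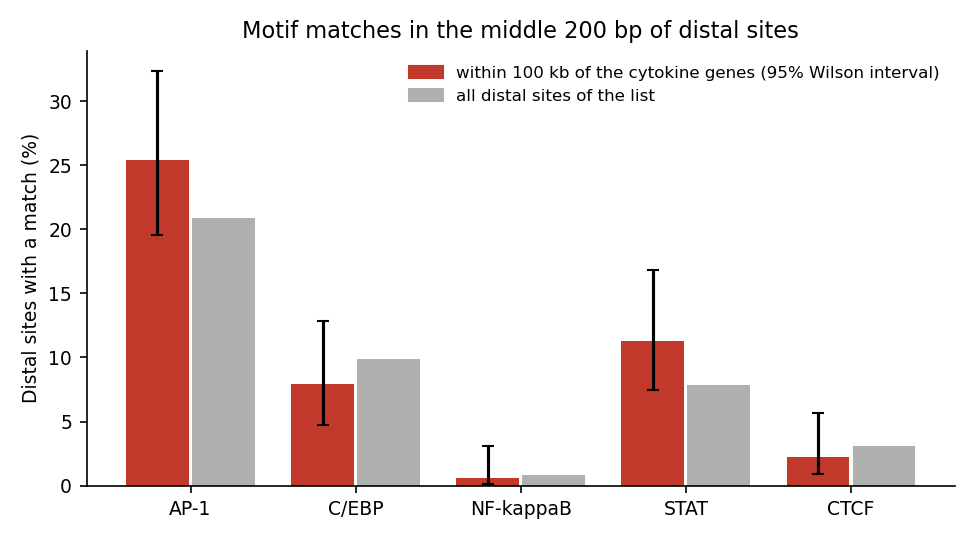
Percentage of distal sites with a motif match in their middle 200 bp (y axis) for 5 motifs, in red for the 177 distal sites round the cytokine genes with 95% Wilson intervals and in grey for all distal sites of the list. AP-1 was the most frequent motif in both, with 25.4% and 20.9%, and every interval reaches across the grey level.

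AP-1 matches were present in the middle of distal sites of every gene, in 3 of 24 sites at Cxcl1 and 3 of 12 at Il11 as the fewest and in 10 of 44 at Csf1 as the most. For each gene, 61 bases round the match in the nearest such site outside exons are shown (plus strand of GRCm38, the match in capitals), because AP-1 was the most frequent of the motifs searched. With 10 to 44 distal sites per gene and 20.9% of all distal sites matching, a match at each gene is not particular to the set, and C/EBP and STAT matches also occurred at all 9 genes when whole distal sites were searched. These sites were chosen after their values were seen. They were centred 15634 bp upstream of Il6 (chr5:29997541-29997601), 4581 bp downstream of the start of Lif in an intron (chr11:4262074-4262134), 17189 bp upstream of Il11 in an intron of Ube2s (chr7:4800005-4800065), 2500 bp upstream of Ccl2 (chr11:82033065-82033125) and 1855 bp upstream of Ccl7 (chr11:82043803-82043863). The others were centred 9323 bp upstream of Cxcl1 (chr5:90881890-90881950), 5195 bp upstream of Cxcl5 (chr5:90754170-90754230), 20424 bp upstream of Cxcl12 (chr6:117148125-117148185) and 12684 bp upstream of Csf1 (chr3:107773164-107773224).
Il6: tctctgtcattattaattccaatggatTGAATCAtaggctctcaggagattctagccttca
Lif: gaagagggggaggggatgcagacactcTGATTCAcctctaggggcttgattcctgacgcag
Il11: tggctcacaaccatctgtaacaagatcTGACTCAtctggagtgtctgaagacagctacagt
Ccl2: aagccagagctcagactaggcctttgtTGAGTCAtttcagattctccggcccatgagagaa
Ccl7: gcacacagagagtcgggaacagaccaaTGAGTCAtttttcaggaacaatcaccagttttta
Cxcl1: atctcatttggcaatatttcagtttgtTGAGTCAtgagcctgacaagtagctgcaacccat
Cxcl5: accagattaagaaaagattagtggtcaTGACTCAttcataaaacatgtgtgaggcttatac
Cxcl12: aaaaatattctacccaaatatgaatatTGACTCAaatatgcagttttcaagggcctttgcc
Csf1: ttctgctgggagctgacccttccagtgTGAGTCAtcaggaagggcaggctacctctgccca

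When whole distal sites were searched, GGGANNTTCC occurred in 7 of the 177 (3.95%, 1.93 to 7.94), beside 2.44% of all distal sites. These were 3 sites of the Csf1 window, 2 of the windows of Ccl2 and Ccl7, and 1 each of those of Lif and Cxcl5. The Lif site, chr11:4291477-4292374, was centred 34368 bp downstream of the start and also held an AP-1 match in its middle.

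Finally, promoter sites were counted for other genes of these pathways. The shares over all coding genes were 71.4%, or 95.9% with and 38.6% without an island. Of 25 other chemokine genes, 9 had a promoter site (36%), among them Cxcl10, Cxcl14 and Cxcl16. An island was lacking at 24 of the 25, and 8 of these 24 had a promoter site, close to the share over coding genes without an island. Of 16 other cytokine genes, 10 had one, whereas the interleukin 1 genes Il1a and Il1b and Clcf1 had none. Of the 13 cytokine genes without an island, 8 had one. Receptor genes had a promoter site in 10 of 13 cases, and in 5 of the 8 without an island. The 10 receptor genes included Il6ra, Il11ra1, Lifr, Osmr and the gp130 gene Il6st, each with a widest promoter site of 1098 to 2155 bp. Among the chemokine receptor genes, Ccr1, Ccr3, Cxcr4 and Ackr3 had a promoter site, whereas Ccr2, Cxcr2 and Ackr1 had none. All 22 regulator genes had a promoter site, such as Rela and Nfkb1 for NF-kappaB subunits, Cebpb (2908 bp) and Stat3, and 20 of these 22 had an island at a start, so that the count was near the share over coding genes with an island. The genes named from these lists were chosen as examples after their values were seen.

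Marker genes were counted in the same way, beside 71.4% of all coding genes, 95.9% of those with and 38.6% of those without an island. Of 14 fibroblast markers, 13 had a promoter site, Lum being the exception with 1185 bp to the nearest site. Promoter sites were also present at 3 of 9 leukocyte markers (Cd68, Csf1r and Lyz2), while Ptprc, Adgre1, Spi1, Itgam, Cd3e and Cd79a had none. They were present at 4 of 6 epithelial and at 4 of 4 endothelial markers. Without an island, they were present at 8 of 9 fibroblast, 3 of 9 leukocyte, 2 of 3 epithelial and 3 of 3 endothelial markers. These counts therefore did not set fibroblasts apart from endothelial cells. The part of other cell types in the sites of the cytokine genes was not tested.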

How the data were processed

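ATAC-seq reads were, according to the methods of the study, trimmed, aligned with BWA to mm10 and filtered, replicates were merged and narrow peaks were called with MACS. The submitters' processing notes name BWA, SAMtools, MACS2, deepTools and DESeq2. Versions, the peak threshold and the joining of sites over samples were not given in the sources used here. Each could change number and edges of sites. The deposited table holds chromosome, start and end of 153924 sites, with no score or count, so depth is unknown. Starts were read as counted from 0 and are printed counted from 1. The reference was GRCm38.p6, the build of mm10, and 0 sites ended beyond their chromosome.

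Gene bodies and start sites came from GENCODE M21, and the background was coding genes on chromosomes 1 to 19 and X. Promoter sites overlapped the 1 kb on either side of a start of any gene, other sites were distal. CpG islands were segments of at least 200 bp outside repeats in which more than 0.5 of bases were G or C and CpG reached over 0.6 of its expected number. Percentiles counted ties at 0.5. A base word counted as unique if it occurred once on both strands of the chromosomes. Intervals cover the sampling of sites only.

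The members, lists and motifs were chosen with earlier results of these data known. By rule, named were the members, genes of the pathway lists with a start in a window, the coding gene with the nearest start, and genes at the widest site of a window, and sites described singly were promoter and body sites and the widest and nearest distal sites. Outside this rule, and after values were seen, examples from the pathway and marker lists, genes whose introns held a described site (Fam71e2, Ube2s), the second widest distal site at Cxcl1 and sites with AP-1 or NF-kappaB matches were added. The pathway gene Cxcl11 was not a coding gene in the annotation. Alternatives covered window size, merged or wide sites, RefSeq bodies, islands and motif settings. Functions were tested on simulated data. Scripts ran in Python 3.11.15 with Matplotlib 3.10.9 for plots, NumPy 2.4.6 and Numba 0.67.0 for sequence scans and SciPy 1.17.1 for intervals.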

Additional observations from a re-analysis of the deposited data

How the results depend on the processing

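No paired analysis was possible because no value per library was at hand, and no replicate could be left out. The 223 sites became 137 with windows of 50 kb, 375 with 200 kb and 117 when sites narrower than the median of the list were dropped, whereas the other alternatives stayed within 1.5 times the count. Body sites numbered 24, of which 14 were not narrower than that median. Islands at a start fell from 3 genes to 1 with stricter criteria (Cxcl12 alone) and rose to 4 with repeats not masked (Il11 added). Searching whole sites in place of the middle 200 bp raised the shares to 42.9% for AP-1, 28.2% for C/EBP and 3.95% for NF-kappaB, beside 39.8%, 26.6% and 2.44% of all distal sites. The NF-kappaB share was 0% within 50 kb and 3.39% with the general consensus, beside 3.23% of all distal sites. The median percentile of the 9 genes by number of sites was 72.5, and it was 83.8 by covered bases, 85.4 per 100 kb of window and 77.4 among genes of the same chromosome. Genes with a promoter site numbered 7 to 8 under the alternatives, and Ccl7 dropped out with wide sites only. The unknown depth limits what the absence of a site can say.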
